A study of Homo sapiens with 9 samples.

Results

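The ZBTB genes encode transcription factors with a BTB domain and C2H2 zinc fingers, and 40 genes of the deposited expression table carry a symbol made of ZBTB, a number and an optional letter, of 21417 gene symbols in all. For each symbol with several transcripts, the transcript with the highest mean over all libraries stands for the gene. ZBTB8OS has a symbol of this form, but it is named for its place on the opposite strand beside ZBTB8A, and it encodes archease, an activator of the tRNA ligase complex, not a BTB protein. It is described apart.

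All libraries came from H9, a human embryonic stem cell line. Neuroectoderm at day 5 was made with NOGGIN at 200 nM, a protein antagonist of BMP ligands, and SB431542 at 10 μM, an inhibitor of the activin and nodal receptors. Mesendoderm at day 5 was made in mTeSR1 medium with human BMP4 at 5 ng/ml. Undifferentiated cells at day 0, called hESC here, grew on Matrigel in mTeSR1. Each of the 3 groups had 3 libraries of total RNA depleted of ribosomal RNA. The labels do not say whether replicates were separate cultures, so p-values measure only the spread between these libraries, which may be technical, and all of it within a single cell line.

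BTB domains pair with each other and, in several ZBTB proteins, bind corepressors such as NCOR1 and BCOR, while the zinc fingers read DNA. Many ZBTB proteins are therefore known as repressors, and several are known as regulators of lineage choice. ZBTB16, also called PLZF, is known from neural progenitors and rosettes and from a fusion with the retinoic acid receptor in acute promyelocytic leukaemia. ZBTB18 and ZBTB20 are known from cortical and hippocampal development, ZBTB7B and ZBTB46 from T cells and dendritic cells, and ZBTB33, ZBTB4 and ZBTB38 as readers of methylated CpG.

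The most frequent pattern was a highest level in neuroectoderm. Of the 38 ZBTB genes tested, 15 were called higher in neuroectoderm than in both mesendoderm and hESC, which is 39.5% of them, and 14.7% of all 14473 genes tested showed that pattern. These genes were ZBTB4, ZBTB5, ZBTB10, ZBTB16, ZBTB18, ZBTB20, ZBTB21, ZBTB26, ZBTB34, ZBTB37, ZBTB39, ZBTB41, ZBTB43, ZBTB47 and ZBTB49. This count depended on the scaling: with small RNA left out and the values rescaled it came to 6, ZBTB5, ZBTB16, ZBTB20, ZBTB26, ZBTB41 and ZBTB47, which is 15.8% of the 38, against 10.5% of all genes. Without mesendoderm replicate 3 it came to 9, against 12.3% of all genes, and without the 3 libraries described below as standing apart to 17, against 21.2%. ZBTB16 and ZBTB20 passed the minimum level for testing through neuroectoderm alone, so a difference was built into their selection, and without them the count is 13 of 36. A smaller group of 5, ZBTB2, ZBTB7A, ZBTB42, ZBTB46 and ZBTB8OS, was called lower in neuroectoderm than in both other groups, against 13.8% of all genes. That count came to 2 without mesendoderm replicate 3, against 11.3% of all genes. It came to 3 without neuroectoderm replicate 1, mesendoderm replicate 2, or hESC replicate 1 or 3, against 11.3% to 13.4%. ZBTB3 and ZBTB44 were called higher in hESC than in both lineages, against 8.52% of all genes. A gene was called where limma's Benjamini-Hochberg adjusted p, over all genes that averaged 0.5 RPKM or more (reads scaled by transcript length and sequencing depth), was under 0.05. Calls that were lost when a single library was left out are given with each gene. All changes below are differences of log2(RPKM + 1), which understate the change of genes at low levels.

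**Figure D1:**
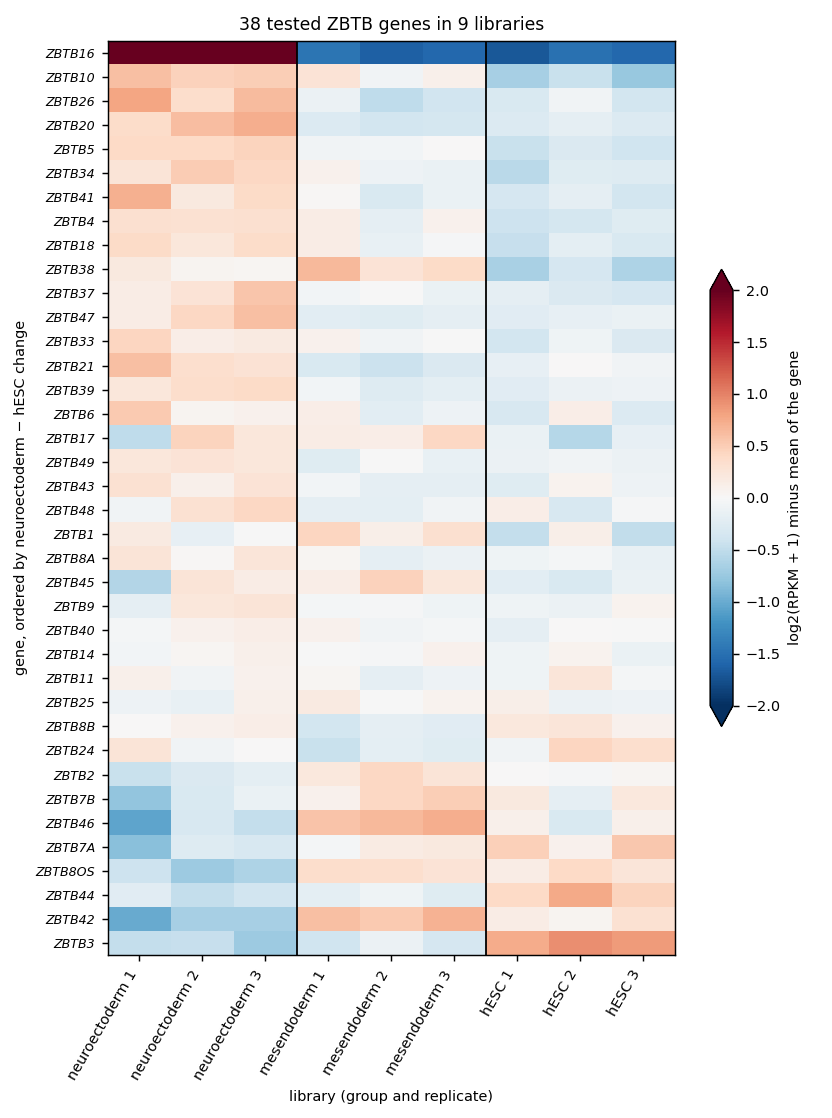
Level of each of the 38 tested ZBTB genes (rows, ordered by the neuroectoderm minus hESC change) in each of the 9 libraries (columns), as log2(RPKM + 1) minus the gene's mean over libraries, red above and blue below that mean, with values past 2 in the darkest shade. The upper rows are red in the neuroectoderm libraries, ZBTB16 most of all, and ZBTB3 and ZBTB44 near the bottom are red in hESC.

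Promoter windows are shown for 5 genes, because they stand for 3 different patterns: ZBTB3 and ZBTB44 were highest in hESC, ZBTB42 and ZBTB46 moved in opposite directions in the lineages, and ZBTB5 was called higher in each lineage than in hESC. Each line gives the 250 bases before the annotated gene start, 5′ to 3′ on the gene's own strand, from RefSeq on GRCh38.p14. Capitals mark GC boxes, the letters GGGCGG or, on the other strand, CCGCCC, overlapping matches included.
ZBTB3: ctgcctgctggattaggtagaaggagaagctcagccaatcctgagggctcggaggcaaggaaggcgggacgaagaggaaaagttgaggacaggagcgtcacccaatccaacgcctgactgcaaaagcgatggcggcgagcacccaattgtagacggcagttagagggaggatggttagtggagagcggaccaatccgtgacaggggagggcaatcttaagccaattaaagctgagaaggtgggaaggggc
ZBTB44: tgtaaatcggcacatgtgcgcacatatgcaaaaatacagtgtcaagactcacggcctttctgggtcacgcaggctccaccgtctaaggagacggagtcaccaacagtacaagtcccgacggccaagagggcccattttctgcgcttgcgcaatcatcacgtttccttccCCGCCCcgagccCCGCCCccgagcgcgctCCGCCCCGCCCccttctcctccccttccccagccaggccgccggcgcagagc
ZBTB42: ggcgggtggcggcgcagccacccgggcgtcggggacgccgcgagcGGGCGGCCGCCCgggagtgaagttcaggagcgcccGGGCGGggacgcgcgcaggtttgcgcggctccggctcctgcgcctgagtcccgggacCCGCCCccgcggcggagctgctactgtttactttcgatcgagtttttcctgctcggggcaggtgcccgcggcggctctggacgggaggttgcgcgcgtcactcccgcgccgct
ZBTB46: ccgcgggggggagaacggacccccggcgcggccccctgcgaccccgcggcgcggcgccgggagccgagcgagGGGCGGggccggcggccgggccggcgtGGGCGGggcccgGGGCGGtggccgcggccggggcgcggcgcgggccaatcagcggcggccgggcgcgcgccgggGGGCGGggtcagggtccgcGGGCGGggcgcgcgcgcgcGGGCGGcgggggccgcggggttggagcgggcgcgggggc
ZBTB5: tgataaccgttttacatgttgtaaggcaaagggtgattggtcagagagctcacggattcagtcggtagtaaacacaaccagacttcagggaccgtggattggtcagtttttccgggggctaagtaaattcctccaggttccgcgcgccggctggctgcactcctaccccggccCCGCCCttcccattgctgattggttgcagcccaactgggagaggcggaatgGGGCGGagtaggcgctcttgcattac

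The ZBTB3 window, chr11:62754161-62754410 on the minus strand, held no GC box and 11 CpG at 56.4% GC. The ZBTB44 window, chr11:130314918-130315167 on the minus strand, held 4 GC boxes and 22 CpG at 63.2% GC. The ZBTB42 window, chr14:104800851-104801100 on the plus strand, held 4 GC boxes and 41 CpG at 76.0% GC. The ZBTB46 window, chr20:63831265-63831514 on the minus strand, held 6 GC boxes and 55 CpG at 91.6% GC. The ZBTB5 window, chr9:37465451-37465700 on the minus strand, held 2 GC boxes and 14 CpG at 56.0% GC. CCAAT, on either strand, was found in the windows of ZBTB3, ZBTB46 and ZBTB5. The pair highest in hESC did not share these features, and the pair that moved in opposite directions had the windows richest in GC of these 5. Whether window content goes with expression pattern was not tested.

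RefSeq windows were given for 34 of the 40 genes, 67 windows in all since a gene can have several starts. On either strand, GGGCGG was found in 56.7% of them, against 42.5% of all 34943 windows of the same length. The CCAAT box, CCAAT, stood in 37.3% against 32.0%, the TATA box, TATAAA, in 9.0% against 10.8%, the E-box, CACGTG, in 11.9% against 6.3%, and the Kaiso site, TCCTGCNA, in 7.5% against 3.7%. The median window held 16 CpG among ZBTB genes and 11 among all windows. These are matches of letters and were not read as binding sites.

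The marker genes matched the labels in part. The 10 pluripotency markers summed to 378 to 394 RPKM in neuroectoderm, 447 to 541 RPKM in mesendoderm and 1037 to 1084 RPKM in hESC. LIN28A made up most of the neuroectoderm sum, at 275 RPKM in neuroectoderm against 307 RPKM in hESC. In neuroectoderm against hESC 8 of the 10 were called lower and 0 higher. NANOG, TDGF1 and PRDM14 averaged under 0.5 RPKM in neuroectoderm. The summed level of 10 neuroectoderm markers was 301 to 400 RPKM in neuroectoderm, 7.71 to 8.35 RPKM in mesendoderm and 34.8 to 41.1 RPKM in hESC, although the forebrain and eye factors LHX2, SIX3 and SIX6 stayed at or under 0.2 RPKM in every neuroectoderm library. The 10 mesoderm markers summed to 5.66 to 10.4 RPKM in neuroectoderm, 309 to 360 RPKM in mesendoderm and 22.6 to 25.1 RPKM in hESC. Mesendoderm also held trophoblast and amnion markers, 8 of 8 tested called higher than in hESC, with 9 markers summing to 633 to 756 RPKM in mesendoderm, against 91.9 to 139 RPKM in hESC. KRT18 made up most of both sums, at 460 RPKM in mesendoderm against 111 RPKM in hESC. CGA, the chorionic gonadotropin alpha chain, was at 0.02 to 0.06 RPKM in mesendoderm. The 5 endoderm markers summed to 6.74 to 12.9 RPKM in neuroectoderm, 47.2 to 74.9 RPKM in mesendoderm and 0.77 to 1.42 RPKM in hESC, but the neuroectoderm sum was mostly CXCR4 and the mesendoderm sum mostly CER1, while the endoderm factors SOX17 and FOXA2 averaged 0.22 and 0.037 RPKM in mesendoderm. The 5 neural crest markers summed to 8.58 to 12.3 RPKM in neuroectoderm, 6.45 to 16.4 RPKM in mesendoderm and 6.91 to 10.1 RPKM in hESC. Against hESC, 3 of them were called higher and 1 lower in neuroectoderm, and 2 higher and 1 lower in mesendoderm. The 5 neuron markers summed to 97.1 to 106 RPKM in neuroectoderm, 17.9 to 22.5 RPKM in mesendoderm and 25.0 to 49.5 RPKM in hESC. MAP2 made up most of the neuroectoderm sum, at 85.1 RPKM in neuroectoderm against 2.61 RPKM in hESC, while TUBB3 was called lower, at 11.5 RPKM in neuroectoderm against 35.6 RPKM in hESC, and DCX was not called between them. The part of these other cell types in the ZBTB changes was not tested, and in such whole cultures fewer cells of a type and less RNA per cell cannot be told apart. Recovered from the steps between low values, depth was 36.5 M to 69.5 M reads (M, mega) per library, at which 3 reads on a transcript of 1 kb give 0.0431 to 0.0822 RPKM.

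Neuroectoderm replicate 1, mesendoderm replicate 1 and hESC replicate 2 stood apart from the other libraries of their groups. In these 3 libraries GC-rich ZBTB transcripts were low relative to their group means and GC-poor ones high. Spearman's rho between GC content and that deviation, over the 35 ZBTB genes with a known GC content, was -0.802, -0.628 and -0.818 in them, and 0.348 to 0.812 in the other 6 libraries. Over all 13873 genes with a GC content it was -0.563, -0.290 and -0.619 in the same 3 libraries. ZBTB17, at 62.1% GC, shows the size of this: its level was 5.28, 11.24 and 9.46 RPKM in neuroectoderm replicates 1 to 3. ZBTB6, at 34.9% GC, was high in the same library, with 7.10, 4.83 and 4.97 RPKM. These correlations are across genes that share a library and are given as a description.

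**Figure D2:**
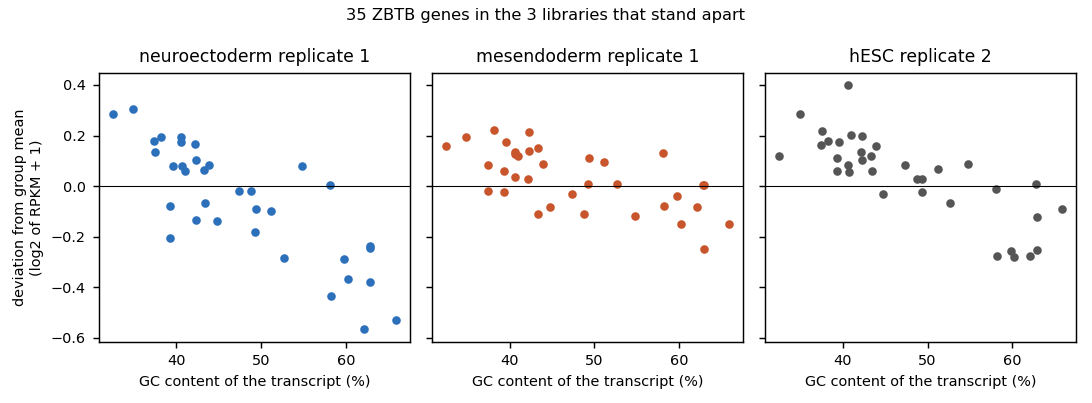
GC content of the transcript (x axis, percent) against the deviation from the mean of its group (y axis, log2 of RPKM + 1) for 35 ZBTB genes in the 3 libraries that stood apart. Points slope down in each panel, with rho of -0.802 in neuroectoderm replicate 1, -0.628 in mesendoderm replicate 1 and -0.818 in hESC replicate 2.

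Most ZBTB genes were expressed at moderate levels. The mean over all libraries of the 38 tested genes ran from 0.589 RPKM for ZBTB20 to 12.24 RPKM for ZBTB8OS, with a median of 5.58 RPKM, against 6.86 RPKM for all genes tested and 3.59 RPKM for 458 tested genes with a ZNF symbol. The highest group mean of a ZBTB gene was 28.9 RPKM, of ZBTB16 in neuroectoderm. ZBTB32, a repressor known from T cells, and ZBTB7C were under the minimum and were not tested. ZBTB32 lay between 0 and 0.12 RPKM in all libraries. ZBTB7C had 0.23, 0.22 and 0.23 RPKM in neuroectoderm, 0.13, 0.15 and 0.12 RPKM in mesendoderm and 0.08, 0.05 and 0.07 RPKM in hESC, so its groups did not overlap, at levels of few reads. In 15 genes the table held several transcripts, and the transcript with the highest mean was 1.005 to 1.27 times the one with the lowest, so the choice of transcript moved levels little.

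In neuroectoderm against hESC, 17 ZBTB genes rose and 7 fell. These 24 calls are 63.2% of the 38 tested, against 44.2% of all genes, with 21.9% of all genes higher and 22.3% lower. Without ZBTB16 and ZBTB20, which passed the minimum level through neuroectoderm alone, 15 of 36 rose. The median change of the ZBTB genes was 0.305 and that of all genes -0.024. In 25 of the 38, the 3 neuroectoderm values did not overlap the 3 hESC values, which held for 51.9% of all genes. Of 458 ZNF genes, 147 rose and 65 fell. Leaving out small RNA and rescaling the values moved the median of all genes by -0.099. There 12 ZBTB genes rose and 8 fell, with 40.6% of all genes called. Without that rescaling, only ZBTB3, ZBTB10 and ZBTB16 were called with a log2(RPKM + 1) change of at least 1, against 14.3% of all genes. That scale shrinks changes at low levels. As ratios of mean RPKM to hESC, ZBTB20 reached 4.43, ZBTB41 2.16, ZBTB26 2.06, ZBTB7A 0.481 and ZBTB42 0.274. Apart from the genes named here, the rises were modest. When neuroectoderm replicate 1, mesendoderm replicate 1 and hESC replicate 2 were all left out, 23 ZBTB genes rose and 8 fell. The share of all genes called then rose as well, to 58.1%.

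Among the neural and forebrain factors, 3 of 4 rose in neuroectoderm against hESC, where 21.9% of all genes did. ZBTB16 and ZBTB20 are among these 3 and passed the minimum level through neuroectoderm alone, so nothing is read from this count. ZBTB16 had 23.48, 34.16 and 29.05 RPKM in neuroectoderm, 0.23, 0.09 and 0.13 RPKM in mesendoderm, and 0.04, 0.20 and 0.14 RPKM in hESC. Neuroectoderm stood far above both other groups, whose values overlapped near the level of few reads. Its change in neuroectoderm was 4.72 ± 0.14 against hESC (SE, adjusted p = 7.16e-08) and 4.69 ± 0.14 against mesendoderm (adjusted p = 2.98e-08), and in mesendoderm against hESC it was 0.03 ± 0.14 (adjusted p = 0.890).

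ZBTB18, a repressor of cortical neuron development also called RP58, had 13.97, 12.35 and 13.77 RPKM in neuroectoderm, 11.62, 9.36 and 10.25 RPKM in mesendoderm, and 7.34, 8.95 and 8.24 RPKM in hESC. The 3 groups did not overlap and mesendoderm lay between. The change in neuroectoderm was 0.65 ± 0.11 against hESC (adjusted p = 0.00165) and 0.33 ± 0.11 against mesendoderm (adjusted p = 0.0370), and mesendoderm differed from hESC by 0.31 ± 0.11 (adjusted p = 0.0611). The call against mesendoderm was lost without neuroectoderm replicate 1 or 3, mesendoderm replicate 2 or 3, or hESC replicate 3 (adjusted p = 0.0609 to 0.125). Replicate number as a block removed it, over all 9 libraries (adjusted p = 0.0800) and with the lineages alone (adjusted p = 0.0515). So did leaving out small RNA (adjusted p = 0.156), median ratio scaling (adjusted p = 0.0600) and the 2 groups alone without a block (adjusted p = 0.0632). The mesendoderm difference from hESC was called without neuroectoderm replicate 1 (adjusted p = 0.0412).

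ZBTB20, known from hippocampal development and from repression of alpha-fetoprotein in liver, had 0.96, 1.33 and 1.52 RPKM in neuroectoderm, 0.26, 0.18 and 0.19 RPKM in mesendoderm, and 0.26, 0.34 and 0.26 RPKM in hESC. Its level was low everywhere, and its neuroectoderm values lay above all others, with a change of 0.81 ± 0.11 against hESC (adjusted p = 0.000293). With no minimum level, which let it enter without regard to neuroectoderm, the change of ZBTB20 was called too (adjusted p = 0.000172). ZBTB45, known from glial differentiation in the mouse, had 2.88, 5.98 and 5.49 RPKM in neuroectoderm, 5.38, 7.08 and 5.86 RPKM in mesendoderm, and 4.07, 3.73 and 4.34 RPKM in hESC. Neuroectoderm overlapped hESC through its replicate 1, and that change of 0.15 ± 0.21 was not called (adjusted p = 0.593), but without that library it was (adjusted p = 0.0179). Mesendoderm lay above hESC, by a larger 0.49 ± 0.21 that was not called either (adjusted p = 0.103). That change was called without neuroectoderm replicate 1 (adjusted p = 0.00581), with the 2 groups alone (adjusted p = 0.0126) and after median ratio scaling (adjusted p = 0.0389). ZBTB45 has 65.9% GC, and its low value in neuroectoderm replicate 1 falls in a library where GC-rich ZBTB transcripts were low. It is among the genes that trend was drawn from, and the part of GC content in its value was not tested.

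All 3 readers of methylated CpG rose in neuroectoderm against hESC, where 21.9% of all genes did, and nothing is read from so small a group. ZBTB33, called Kaiso, had 9.74, 7.77 and 8.09 RPKM in neuroectoderm, 7.47, 6.61 and 6.95 RPKM in mesendoderm, and 5.21, 6.55 and 5.56 RPKM in hESC. The groups were ordered without overlap, but neighbouring groups stood close. Only the change against hESC was called, at 0.49 ± 0.12 in neuroectoderm (adjusted p = 0.00786), while mesendoderm against hESC gave 0.25 ± 0.12 (adjusted p = 0.135) and neuroectoderm against mesendoderm 0.25 ± 0.12 (adjusted p = 0.109). The neuroectoderm call was lost when small RNA was left out and the values rescaled (adjusted p = 0.126).

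ZBTB4 averaged 7.15 ± 0.03 RPKM in neuroectoderm, 5.65 ± 0.80 RPKM in mesendoderm and 4.20 ± 0.32 RPKM in hESC (SD, n = 3 each), and both lineages were called above hESC. ZBTB38 ran the other way between the lineages, at 3.24 ± 0.27 RPKM in neuroectoderm, 4.41 ± 0.74 RPKM in mesendoderm and 1.76 ± 0.34 RPKM in hESC (SD, n = 3 each). Its rise against hESC was 0.63 ± 0.13 in neuroectoderm (adjusted p = 0.00389) and 0.97 ± 0.13 in mesendoderm (adjusted p = 0.000429). The difference between the lineages, -0.34 ± 0.13, was not called (adjusted p = 0.0534), but with replicate number as a block and the libraries of the lineages alone it was (adjusted p = 0.0441), though not with the block over all 9 libraries. It was also called without neuroectoderm replicate 1, mesendoderm replicate 2 or hESC replicate 2 (adjusted p = 0.0385 to 0.0430). For ZBTB4, the mesendoderm call against hESC was lost without neuroectoderm replicate 3, mesendoderm replicate 1 or 3, or any hESC replicate (adjusted p = 0.0509 to 0.115), and when small RNA was left out (adjusted p = 0.344).

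**Figure D3:**
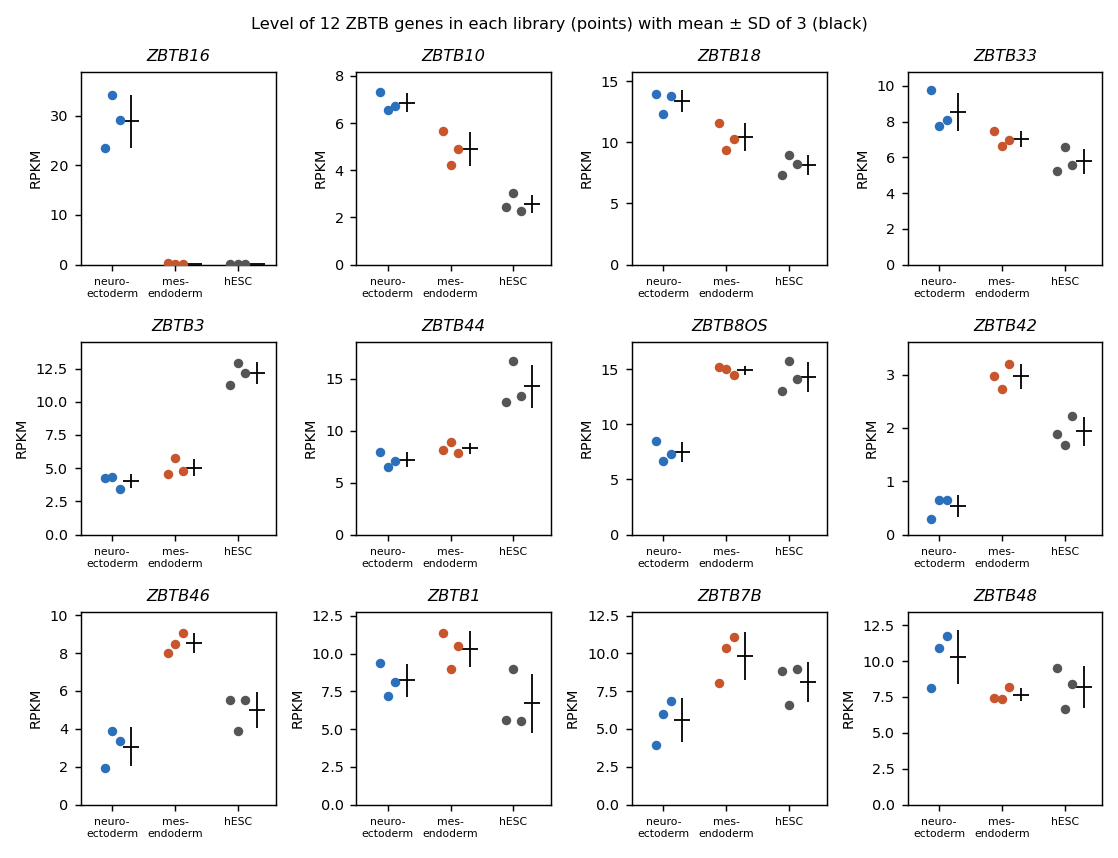
RPKM (y axis, from 0) of 12 ZBTB genes in each library of neuroectoderm (blue), mesendoderm (orange) and hESC (grey), with the mean and SD of 3 libraries in black. ZBTB16 is near 0 outside neuroectoderm, ZBTB3 and ZBTB44 are highest in hESC, and ZBTB42 and ZBTB46 are lowest in neuroectoderm and highest in mesendoderm.

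Of the genes known from genome and telomere maintenance, 1 of 4 rose in neuroectoderm, close to the 21.9% of all genes. ZBTB10, which binds variant telomere repeats, had 7.31, 6.55 and 6.74 RPKM in neuroectoderm, 5.65, 4.21 and 4.91 RPKM in mesendoderm, and 2.45, 3.02 and 2.26 RPKM in hESC. The 3 groups did not overlap. Its change was 1.14 ± 0.12 in neuroectoderm against hESC (adjusted p = 7.66e-05), 0.73 ± 0.12 in mesendoderm against hESC (adjusted p = 0.00158) and 0.42 ± 0.12 in neuroectoderm against mesendoderm (adjusted p = 0.0189). That last call was lost without mesendoderm replicate 2 (adjusted p = 0.0681) or 3 (adjusted p = 0.0553) and when small RNA was left out (adjusted p = 0.0775).

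ZBTB48, called TZAP, binds telomere repeats and had 8.14, 10.89 and 11.76 RPKM in neuroectoderm, 7.43, 7.38 and 8.17 RPKM in mesendoderm, and 9.51, 6.63 and 8.41 RPKM in hESC. Neuroectoderm replicate 1 was the low value of its group, and the groups overlapped. The change in neuroectoderm was 0.29 ± 0.16 against hESC (adjusted p = 0.165) and 0.37 ± 0.16 against mesendoderm (adjusted p = 0.0845), and in mesendoderm against hESC -0.07 ± 0.16 (adjusted p = 0.758). Without neuroectoderm replicate 1 both neuroectoderm changes were called (adjusted p = 0.0262 against hESC and 0.0130 against mesendoderm). ZBTB24, mutated in a form of immunodeficiency with centromeric instability and facial anomalies, averaged 7.32 ± 1.02 RPKM in neuroectoderm, 5.48 ± 0.59 RPKM in mesendoderm and 8.41 ± 1.64 RPKM in hESC (SD, n = 3 each). It was called lower in mesendoderm than in hESC, by -0.53 ± 0.15 (adjusted p = 0.0262), a call lost without mesendoderm replicate 1 or 3 or hESC replicate 2 or 3 (adjusted p = 0.0640 to 0.0913). ZBTB40 averaged 7.92 ± 0.54 RPKM in neuroectoderm, 7.48 ± 0.51 RPKM in mesendoderm and 7.17 ± 0.60 RPKM in hESC (SD, n = 3 each) and was called in no comparison.

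Of the 10 further ZBTB genes that rose in neuroectoderm against hESC, with no role group of their own here, ZBTB26 had the largest change. It had 7.12, 5.00 and 6.34 RPKM in neuroectoderm, 3.35, 2.32 and 2.61 RPKM in mesendoderm, and 2.82, 3.50 and 2.65 RPKM in hESC. Mesendoderm and hESC overlapped, and neuroectoderm lay above both, with a change of 0.84 ± 0.15 against hESC (adjusted p = 0.00185). ZBTB5, described as a repressor of the cell cycle inhibitor CDKN1A, had 10.56, 10.57 and 11.01 RPKM in neuroectoderm, 7.43, 7.50 and 7.90 RPKM in mesendoderm, and 5.48, 6.20 and 5.71 RPKM in hESC. Its 3 groups were tight and ordered, with changes of 0.79 ± 0.08 in neuroectoderm against hESC (adjusted p = 8.43e-05) and 0.34 ± 0.08 in mesendoderm against hESC (adjusted p = 0.0124). The mesendoderm call of ZBTB5 was lost without mesendoderm replicate 3 (adjusted p = 0.0599) or hESC replicate 3 (adjusted p = 0.0515), and when small RNA was left out (adjusted p = 0.343).

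The other 8 were ZBTB21, ZBTB34, ZBTB37, ZBTB39, ZBTB41, ZBTB43, ZBTB47 and ZBTB49, with changes of 0.32 for ZBTB43 to 0.74 for ZBTB34. ZBTB39 was the most abundant of them, at 15.2 ± 0.89 RPKM in neuroectoderm, 10.5 ± 0.82 RPKM in mesendoderm and 10.7 ± 0.51 RPKM in hESC (SD, n = 3 each). When small RNA was left out, the calls of ZBTB21 (adjusted p = 0.0692), ZBTB39 (adjusted p = 0.126), ZBTB43 (adjusted p = 0.352) and ZBTB49 (adjusted p = 0.116) were lost. ZBTB43 also lost its call without neuroectoderm replicate 1 or 3, mesendoderm replicate 2 or 3, or hESC replicate 1 or 3 (adjusted p = 0.0506 to 0.131).

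Of the 7 that fell in neuroectoderm against hESC, ZBTB3 had the largest change. ZBTB3 had 4.29, 4.34 and 3.43 RPKM in neuroectoderm, 4.55, 5.79 and 4.79 RPKM in mesendoderm, and 11.28, 12.93 and 12.18 RPKM in hESC. Every library of either lineage lay far below every hESC library. It fell by 1.39 ± 0.12 in neuroectoderm (adjusted p = 2.07e-05) and by 1.12 ± 0.12 in mesendoderm (adjusted p = 0.000102), and the lineages differed by -0.27 ± 0.12, which was not called (adjusted p = 0.0906). ZBTB44 had 7.99, 6.54 and 7.07 RPKM in neuroectoderm, 8.17, 8.89 and 7.87 RPKM in mesendoderm, and 12.81, 16.67 and 13.34 RPKM in hESC. It showed the same order, and fell by 0.89 ± 0.12 in neuroectoderm (adjusted p = 0.000392) and by 0.71 ± 0.12 in mesendoderm (adjusted p = 0.00207). Both falls were called under every alternative for both genes.

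ZBTB8OS, the archease gene, had 8.51, 6.72 and 7.31 RPKM in neuroectoderm, 15.20, 15.04 and 14.45 RPKM in mesendoderm, and 13.06, 15.73 and 14.11 RPKM in hESC. Mesendoderm lay within the range of hESC, and neuroectoderm below both. It fell by 0.85 ± 0.11 in neuroectoderm against hESC (adjusted p = 0.000301) and by 0.91 ± 0.11 against mesendoderm (adjusted p = 0.000167), while mesendoderm against hESC gave 0.06 ± 0.11 (adjusted p = 0.725). Without this gene, which encodes no BTB protein, 6 of the 37 tested ZBTB factors fell in neuroectoderm against hESC. ZBTB2 averaged 6.62 ± 0.68 RPKM in neuroectoderm, 10.6 ± 0.87 RPKM in mesendoderm and 8.50 ± 0.21 RPKM in hESC (SD, n = 3 each). Its fall of 0.32 ± 0.10 in neuroectoderm against hESC (adjusted p = 0.0294) lost its call without neuroectoderm replicate 1 or 2, mesendoderm replicate 3 or any hESC replicate (adjusted p = 0.0515 to 0.0953).

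The 2 tested genes of the ZBTB7 subfamily were both called lower in neuroectoderm than in mesendoderm, where 24.1% of all genes were, and nothing is read from so small a group. ZBTB7B, known as ThPOK for its part in the choice of the CD4 T cell fate, had 3.97, 5.96 and 6.82 RPKM in neuroectoderm, 8.07, 10.38 and 11.10 RPKM in mesendoderm, and 8.84, 6.61 and 8.94 RPKM in hESC. Neuroectoderm lay below mesendoderm and overlapped hESC. Its change was -0.74 ± 0.19 in neuroectoderm against mesendoderm (adjusted p = 0.0125), -0.49 ± 0.19 in neuroectoderm against hESC (adjusted p = 0.0709) and 0.25 ± 0.19 in mesendoderm against hESC (adjusted p = 0.360). The call against mesendoderm was lost without mesendoderm replicate 3 (adjusted p = 0.0513), and the change against hESC was called without neuroectoderm replicate 3 (adjusted p = 0.0453) or hESC replicate 2 (adjusted p = 0.0462).

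ZBTB7A, known as LRF and as a silencer of fetal globin genes, had 1.75, 3.12 and 2.93 RPKM in neuroectoderm, 3.78, 4.54 and 4.63 RPKM in mesendoderm, and 5.86, 4.23 and 6.13 RPKM in hESC. It fell by 0.84 ± 0.18 in neuroectoderm against hESC (adjusted p = 0.00476) and by 0.58 ± 0.18 against mesendoderm (adjusted p = 0.0251). Both genes are GC-rich, ZBTB7B at 62.9% and ZBTB7A at 60.2% GC, and their low values in neuroectoderm replicate 1 and hESC replicate 2 fall in libraries where GC-rich ZBTB transcripts were low. Both are among the ZBTB genes that trend was drawn from, and the part of GC content in their values was not tested. The ZBTB7A call against mesendoderm was lost without mesendoderm replicate 2 (adjusted p = 0.0733) or 3 (adjusted p = 0.0812). ZBTB7A in mesendoderm against hESC, -0.26 ± 0.18, was not called (adjusted p = 0.300), but was without the 3 libraries that stood apart (adjusted p = 0.0176).

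In mesendoderm against hESC, 7 ZBTB genes rose and 4 fell, and the 11 calls are 28.9% of the 38, against 35.1% of all genes, with 17.0% higher and 18.1% lower. The risers were ZBTB1, ZBTB4, ZBTB5, ZBTB10, ZBTB38, ZBTB42 and ZBTB46, and those that fell were ZBTB3, ZBTB8B, ZBTB24 and ZBTB44. The median change was 0.065 for ZBTB genes and -0.017 for all genes, and groups did not overlap in 19 of 38 ZBTB genes and 54.7% of all genes. ZBTB3 alone was called with a change of at least 1, against 11.5% of all genes. Of 458 ZNF genes, 35 rose and 108 fell. This count changed with single libraries: 6 ZBTB genes were called without mesendoderm replicate 1, 5 without mesendoderm replicate 3, 7 without hESC replicate 2 and 7 without hESC replicate 3. The share of all genes called fell too in these settings, to 27.7%, 25.2%, 29.4% and 26.6%. Rescaled without small RNA, which moved the median of all genes by -0.106, 3 ZBTB genes rose and 4 fell, with 32.7% of all genes called. Leaving out all 3 libraries described above gave 11 that rose and 4 that fell, with 47.1% of all genes called.

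Among the blood and immune lineage factors, 2 of 4 tested rose in mesendoderm against hESC, where 17.0% of all genes did. ZBTB1, needed for lymphoid development in the mouse, had 9.39, 7.21 and 8.13 RPKM in neuroectoderm, 11.35, 9.0 and 10.52 RPKM in mesendoderm, and 5.62, 8.95 and 5.53 RPKM in hESC. hESC replicate 2 nearly reached the lowest mesendoderm value, and neuroectoderm overlapped both other groups. Its change was 0.58 ± 0.18 in mesendoderm against hESC (adjusted p = 0.0343), 0.29 ± 0.18 in neuroectoderm against hESC (adjusted p = 0.230) and -0.29 ± 0.18 in neuroectoderm against mesendoderm (adjusted p = 0.210). The mesendoderm call was lost without neuroectoderm replicate 3, mesendoderm replicate 1 or 3, or hESC replicate 1 or 3 (adjusted p = 0.0528 to 0.122). Without hESC replicate 2 the neuroectoderm change was called as well (adjusted p = 0.0248). ZBTB17, the MYC partner MIZ1, averaged 8.66 ± 3.06 RPKM in neuroectoderm, 9.57 ± 1.20 RPKM in mesendoderm and 6.39 ± 1.17 RPKM in hESC (SD, n = 3 each). It was called in no comparison, but without neuroectoderm replicate 1 it was called higher in each lineage than in hESC (adjusted p = 0.0105 for neuroectoderm and 0.0163 for mesendoderm). ZBTB25 averaged 5.84 ± 0.65 RPKM in neuroectoderm, 6.49 ± 0.50 RPKM in mesendoderm and 5.93 ± 0.62 RPKM in hESC (SD, n = 3 each) and was called in no comparison.

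ZBTB42 and ZBTB46 were the only ZBTB genes called in opposite directions in the lineages, 2 of 38, against 6.10% of all genes. Both were also called higher in mesendoderm than in both other groups, a pattern of 10.8% of all genes. ZBTB42, mutated in a lethal congenital contracture syndrome, had 0.29, 0.65 and 0.65 RPKM in neuroectoderm, 2.97, 2.73 and 3.20 RPKM in mesendoderm, and 1.89, 1.69 and 2.23 RPKM in hESC. The 3 groups did not overlap. Its change was -0.95 ± 0.12 in neuroectoderm against hESC (adjusted p = 0.000286), 0.44 ± 0.12 in mesendoderm against hESC (adjusted p = 0.0234) and -1.38 ± 0.12 in neuroectoderm against mesendoderm (adjusted p = 2.09e-05). The mesendoderm call against hESC was lost without mesendoderm replicate 1 or 3 or hESC replicate 1 or 2 (adjusted p = 0.0607 to 0.0870), when small RNA was left out (adjusted p = 0.0974) and with a pseudocount of 0.1 (adjusted p = 0.104).

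ZBTB46, known as a marker of classical dendritic cells, had 1.94, 3.88 and 3.38 RPKM in neuroectoderm, 8.02, 8.49 and 9.07 RPKM in mesendoderm, and 5.54, 3.90 and 5.53 RPKM in hESC. Mesendoderm stood well above the rest, while the highest neuroectoderm value lay just under the lowest hESC value. Its change was -1.26 ± 0.19 in neuroectoderm against mesendoderm (adjusted p = 0.000659), 0.68 ± 0.19 in mesendoderm against hESC (adjusted p = 0.0239) and -0.58 ± 0.19 in neuroectoderm against hESC (adjusted p = 0.0375). The fall against hESC was lost without neuroectoderm replicate 1 or 3, any mesendoderm replicate, or hESC replicate 1 or 3 (adjusted p = 0.0527 to 0.120), and the mesendoderm rise without any mesendoderm replicate or hESC replicate 2 (adjusted p = 0.0510 to 0.0807). The difference between the lineages was called under every alternative for both genes.

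In neuroectoderm against mesendoderm, 16 ZBTB genes were higher and 6 lower. The 22 calls are 57.9% of the 38, against 48.1% of all genes, with 24.0% higher and 24.1% lower. Without ZBTB16 and ZBTB20, which passed the minimum level through neuroectoderm alone, 14 of 36 were higher. The median was 0.273 for ZBTB genes, -0.006 for all genes and 0.278 for ZNF genes, of which 206 of 458 were higher and 41 lower, so a lean towards neuroectoderm was also present in the ZNF genes. Groups did not overlap in 26 of 38 ZBTB genes and in 57.2% of all genes. ZBTB16, ZBTB42 and ZBTB46 were called with a change of at least 1, against 17.5% of all genes. The 16 higher were the 15 that were also above hESC, and ZBTB8B, and the 6 lower were ZBTB2, ZBTB7A, ZBTB7B, ZBTB8OS, ZBTB42 and ZBTB46. After ZBTB16, the largest differences upward were 0.93 ± 0.15 for ZBTB26, 0.90 ± 0.11 for ZBTB20 and 0.75 ± 0.11 for ZBTB21.

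Without mesendoderm replicate 3, 14 ZBTB genes were called between the lineages, with 38.4% of all genes called. With small RNA left out, 9 were higher and 6 lower, with 44.7% of all genes called. Without the 3 libraries that stood apart 18 were higher and 10 lower, with 60.3% of all genes called. Replicate number as a block, with the libraries of the lineages alone, called 20, 13 higher and 7 lower, with 46.5% of all genes called. It took away the calls of ZBTB18 (adjusted p = 0.0515), ZBTB37 (adjusted p = 0.0659) and ZBTB4 (adjusted p = 0.0852) and added ZBTB38 (adjusted p = 0.0441). Leaving out single libraries removed the call of ZBTB34 without mesendoderm replicate 3 (adjusted p = 0.0567), and that of ZBTB37 without neuroectoderm replicate 3 or mesendoderm replicate 1 or 3 (adjusted p = 0.0508 to 0.0790). That of ZBTB43 was lost without neuroectoderm replicate 3 or mesendoderm replicate 2 or 3 (adjusted p = 0.0579 to 0.0675), and that of ZBTB4 in 8 of 9 cases, the exception being mesendoderm replicate 1 (adjusted p = 0.0581 to 0.143).

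**Figure D4:**
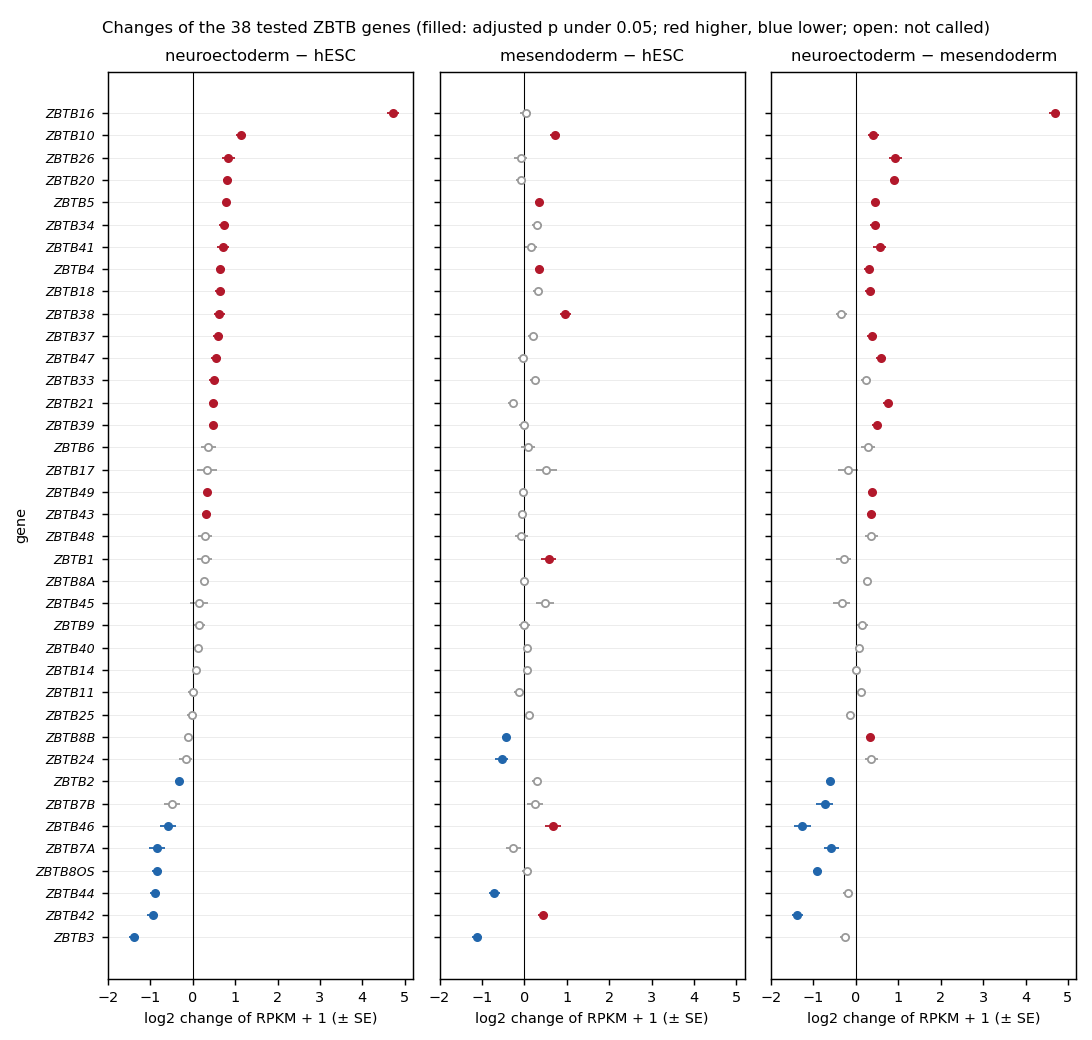
Change of log2(RPKM + 1) with its SE (x axis) for the 38 tested ZBTB genes (y axis, same order in each panel) in neuroectoderm minus hESC, mesendoderm minus hESC and neuroectoderm minus mesendoderm, with filled points for adjusted p under 0.05. ZBTB16 lies near 4.7 in both neuroectoderm panels, and 24, 11 and 22 points are filled from left to right.

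Across the 3 comparisons, 28 of the 38 ZBTB genes were called in at least 1, which is 73.7%, against 64.9% of all genes. The remaining 10, ZBTB6, ZBTB8A, ZBTB9, ZBTB11, ZBTB14, ZBTB17, ZBTB25, ZBTB40, ZBTB45 and ZBTB48, were called in none, against 35.1% of all genes, and that does not show that they were equal between groups. ZBTB14 and ZBTB11 had the smallest changes of these, within 0.12 in size in all 3 comparisons. Genes called higher in each lineage than in hESC were ZBTB4, ZBTB5, ZBTB10 and ZBTB38, 4 of 38, against 6.21% of all genes. This count was 7 without neuroectoderm replicate 1, against 9.7% of all genes. It was 2 when small RNA, mesendoderm replicate 3 or hESC replicate 3 was left out, against 3.55%, 4.4% and 4.17% of all genes. The comparisons with hESC share the hESC libraries, so these counts are not independent of each other.

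ZBTB genes that lie next to each other were not always called alike, and differences between neighbours were not tested. ZBTB8B, ZBTB8A and ZBTB8OS follow each other on chromosome 1, by the RefSeq gene table of GRCh38.p14. ZBTB8B averaged 2.09 ± 0.13 RPKM in neuroectoderm, 1.47 ± 0.17 RPKM in mesendoderm and 2.32 ± 0.19 RPKM in hESC (SD, n = 3 each) and was called lower in mesendoderm than in both other groups, a pattern of 8.47% of all genes. Its call against neuroectoderm was lost without neuroectoderm replicate 3 (adjusted p = 0.0573) or mesendoderm replicate 1 (adjusted p = 0.0524). ZBTB8A averaged 3.15 ± 0.36 RPKM in neuroectoderm, 2.45 ± 0.27 RPKM in mesendoderm and 2.45 ± 0.14 RPKM in hESC (SD, n = 3 each) and was called in no comparison, although it was called higher in neuroectoderm than in hESC (adjusted p = 0.0340) and than in mesendoderm (adjusted p = 0.0295) without neuroectoderm replicate 2, and than in mesendoderm without mesendoderm replicate 1 (adjusted p = 0.0393). So the calls of the 3 neighbours differed, but a gene not called is not shown to differ from its neighbour. In neuroectoderm against mesendoderm the change was 0.26 ± 0.10 for ZBTB8A (adjusted p = 0.0559) and 0.32 ± 0.09 for ZBTB8B (adjusted p = 0.0156). On chromosome 9, ZBTB43 and ZBTB34 are adjacent and were both called higher in neuroectoderm. ZBTB6 and ZBTB26 are adjacent too, and ZBTB6, at 5.63 ± 1.27 RPKM in neuroectoderm, 4.42 ± 0.67 RPKM in mesendoderm and 4.13 ± 0.93 RPKM in hESC (SD, n = 3 each), was not called where ZBTB26 was. ZBTB6 was called higher in neuroectoderm than in hESC without hESC replicate 2 (adjusted p = 0.0433). ZBTB25 and ZBTB1 overlap on chromosome 14. Whether the authors' counting used strand is not given in the sources used here, so reads of overlapping genes, and of the antisense transcripts known at ZBTB11 and ZBTB20, may be shared, and the levels of these genes are uncertain to that extent.

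ZBTB9, at 10.8 ± 1.92 RPKM in neuroectoderm, 9.52 ± 0.24 RPKM in mesendoderm and 9.56 ± 0.72 RPKM in hESC (SD, n = 3 each), belongs with ZBTB45, ZBTB48 and ZBTB17 among the genes that were called higher in neuroectoderm than in hESC only once neuroectoderm replicate 1 was left out (adjusted p = 0.0250 for ZBTB9), apart from ZBTB48, which was also called after median ratio scaling (adjusted p = 0.0338). All 4 have at least 52.7% GC and their lowest neuroectoderm value in that library. The part of GC content in these calls was not tested.

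Of 13 BTB zinc finger genes with other names, 8 were tested, and 3 rose and 1 fell in neuroectoderm against hESC, 50% called, near the 44.2% of all genes. BCL6, a repressor known from germinal centre B cells, had 10.62, 15.30 and 14.23 RPKM in neuroectoderm, 6.37, 5.70 and 6.76 RPKM in mesendoderm, and 1.02, 1.18 and 1.36 RPKM in hESC. Its groups were ordered without overlap, as those of ZBTB10 were, with changes of 2.71 ± 0.14 in neuroectoderm against hESC (adjusted p = 1.01e-06), 1.73 ± 0.14 in mesendoderm against hESC (adjusted p = 2.02e-05) and 0.97 ± 0.14 in neuroectoderm against mesendoderm (adjusted p = 0.000411). In mesendoderm against hESC 2 of the 8 rose and 1 fell, 37.5% called, near the 35.1% of all genes, and in neuroectoderm against mesendoderm only BCL6 was called, 12.5% against 48.1% of all genes.

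Of 21 corepressor genes with CUL3, the ubiquitin ligase scaffold that binds BTB proteins, 4 rose and 6 fell in neuroectoderm against hESC, none rose and 3 fell in mesendoderm against hESC, and 7 were higher and 2 lower in neuroectoderm against mesendoderm. The shares called, 47.6%, 14.3% and 42.9%, stand against 44.2%, 35.1% and 48.1% of all genes in the same comparisons. BCOR, a corepressor bound by the BCL6 BTB domain, had 3.83, 5.01 and 5.44 RPKM in neuroectoderm, 8.68, 10.29 and 8.90 RPKM in mesendoderm, and 18.10, 18.83 and 20.46 RPKM in hESC. Its groups did not overlap, in the reverse order to BCL6, with falls of 1.81 ± 0.13 in neuroectoderm (adjusted p = 6.80e-06) and 0.97 ± 0.13 in mesendoderm (adjusted p = 0.000419) against hESC. Its paralog BCORL1 had 3.03, 3.33 and 3.08 RPKM in neuroectoderm, 1.36, 0.72 and 0.70 RPKM in mesendoderm, and 0.50, 0.46 and 0.52 RPKM in hESC, and was called higher in neuroectoderm by 1.47 ± 0.13 against hESC (adjusted p = 2.52e-05) and by 1.12 ± 0.13 against mesendoderm (adjusted p = 0.000108).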

How the data were processed

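The submitters' processing notes name hg19, TopHat, TopHat2 2.0.13 and Bowtie2, with no role for each; the counter, strand setting and treatment of multiple alignments were not given in the sources used here. The deposited RPKM values, computed by the authors per transcript, were used as they stand: 38759 transcripts of 21417 symbols in 9 libraries, with 0 columns of no known sample. Per symbol, the transcript with the highest mean was kept. The 14473 genes that averaged 0.5 RPKM or more were tested with limma 3.58.1 in R 4.3.3 on log2(RPKM + 1), all 9 libraries in 1 fit with a trend, with p-values adjusted by Benjamini-Hochberg over all genes and a threshold of 0.05. The test was checked on simulated data. Each simulated gene and library had independent noise, so this check does not cover deviations that genes share within a library. Alternatives changed the pseudocount, the filter, the transcript choice, the scaling, the libraries in the fit and the replicate block.

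The members and lists were chosen with earlier results of these data known. Values of every library are given for members called with a change of at least 1 and a group mean of at least 1 RPKM, and for the most abundant member of each role group, and a few more were chosen after their values were seen.

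Depth was recovered from whole-read steps: 94.3% to 97.6% of the 211 to 262 values per library lay within 0.1 of a whole read. Precision is limited by 3 libraries per group. The labels state no pairing, so the main fit had no block, and replicate number as a block entered only as an alternative. Deviations from group means in same-numbered neuroectoderm and mesendoderm libraries correlated by 0.392, 0.247 and 0.229. For same-numbered neuroectoderm and hESC libraries the values were -0.616, -0.738 and 0.401, and for mesendoderm and hESC -0.485, -0.295 and 0.058. Libraries with different numbers correlated too, by 0.241 for neuroectoderm replicate 3 with mesendoderm replicate 2. Neuroectoderm replicate 1 with hESC replicate 2 gave 0.787. Plots were drawn with matplotlib 3.10.9 in Python 3.11.15.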

Additional observations from a re-analysis of the deposited data

Results flagged for a closer look

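ZBTB42 and ZBTB46 were called lower in neuroectoderm and higher in mesendoderm, both relative to the same hESC libraries. The difference between the lineages, which is the test of neuroectoderm against mesendoderm, was -1.38 for ZBTB42 (limma, adjusted p = 2.09e-05) and -1.26 for ZBTB46 (limma, adjusted p = 0.000659), with all 3 neuroectoderm libraries below all 3 mesendoderm libraries for each gene. The opposite calls against hESC rest on single libraries: without mesendoderm replicate 1 or 3, or hESC replicate 1 or 2, 0 ZBTB genes were called in opposite directions. Of all genes, 4.17% to 5.09% were called so in these settings, against 6.10% with all libraries.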

How the results depend on the processing

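No ZBTB gene changed direction under any alternative while called. Of the calls, 17 of 24 in neuroectoderm against hESC, 5 of 11 in mesendoderm against hESC and 13 of 22 in neuroectoderm against mesendoderm held under every alternative in which the gene was tested; ZBTB20, among the 17 and the 13, was not tested at a minimum mean of 1 RPKM. Leaving out each library in turn gave 21 to 26, 5 to 16 and 14 to 23 calls in these comparisons. The share of all genes called ran from 34.9% to 51.3%, 25.2% to 46.3% and 38.4% to 51.8%. With small RNA left out and the values rescaled, the calls in mesendoderm against hESC came to 7, with 32.7% of all genes called. The cause was not tested. Without the 3 libraries that stood apart there were 31, 15 and 28 calls, while the share of all genes called rose too, to 58.1%, 47.1% and 60.3%. With replicate number as a block over all 9 libraries there were 21, 8 and 18 calls, with 39.0%, 29.2% and 43.2% of all genes called. With the block in neuroectoderm and mesendoderm libraries alone, an alternative added after seeing the data, there were 20, with 46.5% of all genes called. Between the lineages, both blocks removed the calls of ZBTB4, ZBTB18 and ZBTB37, the block over all 9 libraries also removed that of ZBTB43, the other block alone added that of ZBTB38, and no further call changed. The genes above both other groups in neuroectoderm numbered 15, against 14.7% of all genes, and 6 to 17 under the alternatives, against 10.5% to 21.2%. Leaving out a single library removed 6 of the 11 calls in mesendoderm against hESC at least once, and levels under about 0.1 RPKM rest on few reads.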
